A study of Trametes versicolor with 12 samples.

Results

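In Trametes versicolor, 122 of 14296 gene models were expressed in strain 1956-1252 and had almost no reads in strain BRFM1218. The genes were chosen by their read counts: at most 3 reads in all 6 BRFM1218 libraries together, and a mean CPM of 5 or more in the 6 libraries of 1956-1252, where CPM is a gene's count of all reads scaled to a common column total. The strain difference in these counts is therefore given below as a description only. The comparison tested here is the change with culture age within 1956-1252. The rule averaged over both ages, so it did not use the age contrast itself, but 9 genes met the CPM bound through 1 age alone: 7 had under 5 CPM at 2 weeks and 2 had under 5 CPM at 4 weeks. These 9 had to differ between the ages to be kept, and the counts are also given for the 113 genes with at least 5 CPM at each age.

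RNA was sequenced from mycelium of 1956-1252 after 4 weeks, 1956-1252 after 2 weeks, BRFM1218 after 4 weeks and BRFM1218 after 2 weeks, all on agar with 4% malt. Each of the 4 groups had 3 libraries, which the labels describe as biological replicates from separate cultures. No genetic change or treatment is named for either strain, and only these 2 strains were sampled. Libraries held 31763162 to 74647672 reads assigned to genes, 376192117 in all in 1956-1252 and 265738118 in BRFM1218.

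Trametes versicolor is a white-rot fungus, a wood decayer that can break down lignin with secreted oxidative enzymes. Strains of one fungal species can differ in which genes they carry, in how far the sequence of a gene has diverged, and in which genes they transcribe. In fungal genomes, genes of one secondary metabolite pathway often lie side by side, and whole stretches of neighbouring genes can be present in some strains and missing in others. A read count on a shared set of gene models can be near 0 in a strain for any of these reasons, so absence or divergence of a locus in BRFM1218 cannot be told apart here from silence of an intact one. All 122 genes matched a locus tag of the RefSeq gene table of assembly Trametes versicolor v1.0, and 0 of them carried a symbol, so they are called by their locus tags and no function is given for any of them.

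The near absence of reads in BRFM1218 was far below the level that set the rule's lower bound in 1956-1252. Of the 122 genes, 42 had 0 reads in BRFM1218, 42 had 1 read, 21 had 2 reads and 17 had 3 reads over all 6 libraries. A gene at 5 CPM would have had 1329 reads at the depth of these BRFM1218 libraries together, and 3 reads correspond to 0.0113 CPM, which is also the limit that a count of 0 allows; both cover counting error only. Together the 122 genes took 1899187 reads in 1956-1252, against 135 reads in BRFM1218, where no library held more than 30 and none fewer than 10. Each of the 122 genes had reads in every library of 1956-1252, and the fewest for any gene over the 6 libraries was 1857. The median level in 1956-1252 differed little between genes with 0, 1, 2 and 3 BRFM1218 reads, at 12.6, 15.5, 12.8 and 12.9 CPM.

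The same rule with the strains exchanged found 9 genes with at least 5 CPM in BRFM1218 and at most 3 reads in 1956-1252. With the read limit raised to 4 to allow for the greater depth of 1956-1252, an alternative chosen after the data were seen, it found 12. The numbers of genes with a mean of at least 5 CPM were 9931 in 1956-1252 and 8553 in BRFM1218. These counts were not tested, as only 1 strain stands on each side.

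The bounds of the rule fell among genes of similar values. Just inside the CPM bound lay TRAVEDRAFT_28312 at 5.14 CPM, TRAVEDRAFT_47596 at 5.23 CPM and TRAVEDRAFT_79503 at 5.28 CPM. Just outside it were TRAVEDRAFT_54535 at 4.69 CPM, TRAVEDRAFT_131635 at 4.66 CPM and TRAVEDRAFT_48992 at 4.57 CPM. On the read bound, 17 genes had exactly 3 BRFM1218 reads and were kept, while 7 expressed genes had 4 and were not. In all, 44 genes with at least 5 CPM in 1956-1252 had 4 to 10 reads in BRFM1218.

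In strain 1956-1252 the 122 genes were mostly of moderate abundance. Their mean level ran between 5.14 and 447 CPM, with a median of 13.1 CPM, where the 9931 genes of at least 5 CPM had a median of 39.2 CPM. Of the 122, 11 reached 100 CPM, 42 reached 20 CPM and 38 lay under 10 CPM. The 10 with the most reads held 58.3% of all reads of the set. Scaled by model length as the deposited RPKM (reads scaled by model length and by library size), the mean levels ran between 3.74 and 355, with a median of 16.7 RPKM beside 26.9 RPKM for the genes of at least 5 CPM. None of the 122 was among the 100 models of highest RPKM in this strain, 7 were among the top 1000, and 39 lay above the median of the expressed genes.

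Their gene models were shorter at the median than other models. The median length was 941 bp, with a range of 156 to 4980 bp. It was 1391 bp for the genes of at least 5 CPM and 1194 bp for all models with a length. Neither the read limit nor the CPM bound of the rule was scaled by length. Of the 122, 19 (15.6%) were under 500 bp, beside 599 (6.03%) of those genes. Lengths are the ones implied by the deposited RPKM.

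For most of the genes nearly all reads were unique to 1 model. In 101 of the 122 genes more than 99% of the reads were unique, and in 6 less than 50% were. TRAVEDRAFT_32021 and TRAVEDRAFT_32651, both 997 bp long, had 6275 and 6053 reads in 1956-1252 with 0 unique ones, and TRAVEDRAFT_137593 and TRAVEDRAFT_135660, both 1317 bp, had 2811 and 2617 reads with 0 unique ones. TRAVEDRAFT_137512 had 45.8% unique reads and TRAVEDRAFT_75757 had 16.2%. The separate levels of these 6 genes are uncertain, since their reads also matched elsewhere.

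The 10 genes of highest RPKM all passed the test for a change with age, 7 of them higher and 3 lower at 4 weeks. Most of these changes were small, and 62.0% of all 12505 tested genes passed, 31.4% higher and 30.6% lower. TRAVEDRAFT_53584, the most abundant per length, had 466, 469 and 445 RPKM at 4 weeks, against 235, 243 and 270 RPKM at 2 weeks. TRAVEDRAFT_53588 had 298, 291 and 302 RPKM at 4 weeks, against 236, 239 and 263 RPKM at 2 weeks. TRAVEDRAFT_52770 had 259, 263 and 255 RPKM at 4 weeks, against 198, 199 and 210 RPKM at 2 weeks. In all 3 genes every 4-week library lay above every 2-week library, with the widest gap in TRAVEDRAFT_53584.

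TRAVEDRAFT_23834 and TRAVEDRAFT_32144 lay the other way. TRAVEDRAFT_23834 had 220, 208 and 210 RPKM at 4 weeks, against 240, 231 and 256 RPKM at 2 weeks. TRAVEDRAFT_32144 had 199, 202 and 206 RPKM at 4 weeks, against 221, 224 and 223 RPKM at 2 weeks. Neither gene's ages overlapped. TRAVEDRAFT_17336 had 251, 230 and 239 RPKM at 4 weeks, against 200, 198 and 221 RPKM at 2 weeks.

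The other 4 genes of the top 10 included the steepest fall. TRAVEDRAFT_59756 had 68.1, 74.4 and 76.2 RPKM at 4 weeks, against 258, 242 and 186 RPKM at 2 weeks. TRAVEDRAFT_50739 had 202, 205 and 193 RPKM at 4 weeks, against 140, 146 and 153 RPKM at 2 weeks. At 2 weeks TRAVEDRAFT_59756 thus lay above TRAVEDRAFT_50739 in every library, and at 4 weeks below it in every library. TRAVEDRAFT_99127 had 158, 157 and 160 RPKM at 4 weeks, against 119, 116 and 131 RPKM at 2 weeks, and TRAVEDRAFT_53585 had 151, 160 and 162 RPKM at 4 weeks, against 100, 96.6 and 98.5 RPKM at 2 weeks.

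**Figure D1:**
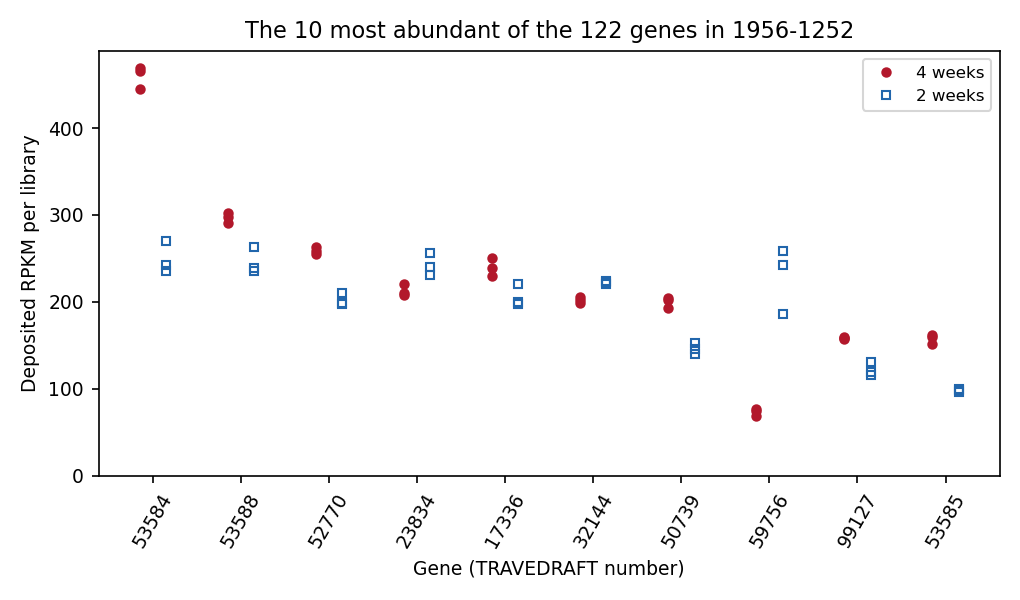
Deposited RPKM per library (linear axis) of the 10 genes of highest mean RPKM in 1956-1252, with 4-week libraries as filled circles and 2-week libraries as open squares, 3 each. TRAVEDRAFT_53584 is the highest at 4 weeks, at 445 to 469 RPKM, and TRAVEDRAFT_59756 is the gene with the clear fall, at 68.1 to 76.2 RPKM at 4 weeks and 186 to 258 RPKM at 2 weeks.

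The age comparison asked which of the 122 genes changed between 4-week and 2-week mycelium of 1956-1252. Of the 122, 59 (48.4%) were higher at 4 weeks, 26 (21.3%) were lower and 37 did not pass, with calls made where the Benjamini-Hochberg adjusted p of the edgeR quasi-likelihood test, over all 12505 tested genes, was below 0.05. Among all tested genes 31.4% were higher and 30.6% lower, 62.0% in either direction, and among the 9931 genes of at least 5 CPM 32.3% were higher and 36.2% lower. The called share was thus near the background in total, with more of it on the side of 4 weeks. Of the 113 genes with at least 5 CPM at each age, a split chosen after the data were seen, 52 (46.0%) were higher and 24 (21.2%) lower, beside 31% and 36.8% of the 9610 genes that meet the same bound. The median log2 change (4 weeks over 2 weeks) was 0.18 over the 122 genes and 0.00 over all tested genes, with a range of -1.71 to 5.72 over the 122.

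Large changes were few. At least 2-fold changes among the calls numbered 9 higher (7.38%) and 1 lower (0.82%), shares near the 5.28% and 0.992% of all tested genes, and the other 75 called genes changed by less. Of the 9 rises, 5 were in genes under 5 CPM at 2 weeks, and among the 113 genes with at least 5 CPM at each age 4 (3.54%) were higher by 2-fold or more and 1 (0.885%) lower, beside 3.55% and 0.947% of the 9610. In 59 of the 122 every 4-week library lay above every 2-week library, and in 29 every 4-week library lay below, beside 33.8% and 32.3% of all tested genes. As a share of all reads, the 122 genes took 0.548, 0.542 and 0.535% at 4 weeks, against 0.470, 0.466 and 0.488% at 2 weeks, and the ages did not overlap. These shares are on column totals and include the 9 genes that met the CPM bound through 1 age alone, 7 of them through 4 weeks. Part of the difference thus follows from the rule, and it was not tested. In bulk mycelium, fewer cells that express a gene and less RNA of it per cell cannot be told apart.

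The third 2-week library of 1956-1252 stood apart from the other two. It was the highest of the 3 in 87 of the 122 genes (71.3%) and the lowest in 21, whereas among the genes of at least 5 CPM it was the highest in 47.1%. Without it, 68 of the 122 genes were higher and 27 lower at 4 weeks, and the common biological coefficient of variation over all genes was 4.09% without it and 6.05% with it. What sets this library apart was not tested. The median coefficient of variation within an age over the 122 genes was 5.36% at 4 weeks and 7.12% at 2 weeks, beside 3.86% and 5.06% over the genes of at least 5 CPM.

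The calls in subsets of the genes are read against the 31.4% higher and 30.6% lower of all tested genes. Among the genes of at least 5 CPM the shares were 32.3% and 36.2%. The subsets include the 9 genes that met the CPM bound through 1 age alone. Of these 9, TRAVEDRAFT_77006, TRAVEDRAFT_73285 and TRAVEDRAFT_79503 had 0 BRFM1218 reads, and the others had 1 to 3. Of the 42 genes with 0 BRFM1218 reads, 24 (57.1%) were higher and 5 (11.9%) lower at 4 weeks, and of the 80 with 1 to 3 reads, 35 (43.8%) were higher and 21 (26.2%) lower; the difference between these subsets was not tested. Of the 118 genes with unique reads, 55 (46.6%) were higher and 26 (22.0%) lower. Above and below the median RPKM of the set, 33 (54.1%) and 26 (42.6%) of 61 genes each were higher, and 13 (21.3%) were lower in each.

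**Figure D2:**
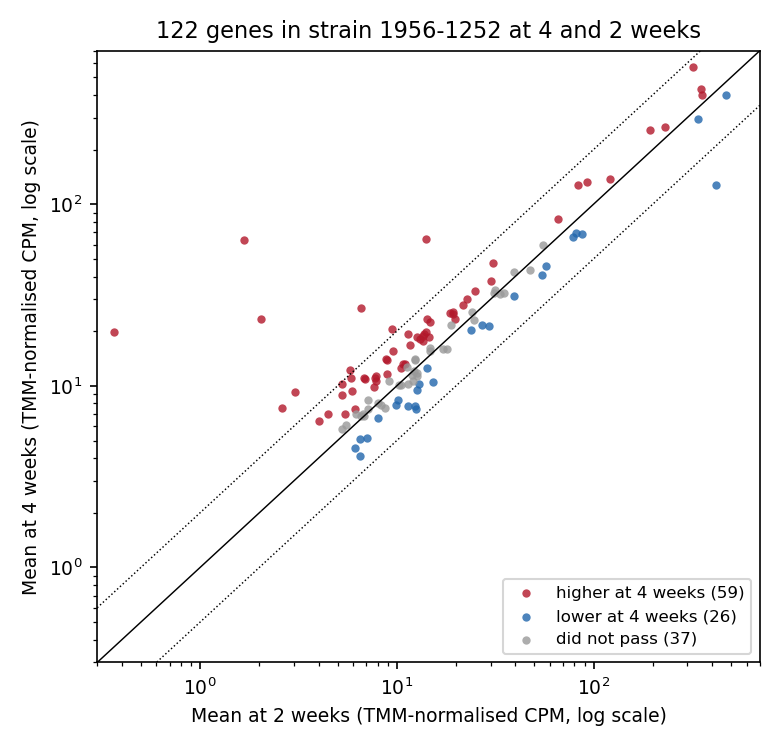
Mean level of each of the 122 genes at 4 weeks (vertical axis) and at 2 weeks (horizontal axis) in 1956-1252, as CPM normalised by trimmed means of M values, on log axes with n = 3 libraries per age, coloured by the test result. The solid line marks equal levels and the dotted lines a 2-fold difference; 59 genes are coloured as higher, 26 as lower and 37 as not passing, and most lie between the dotted lines.

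The 3 steepest rises were in genes that were scarce at 2 weeks and met the CPM bound only through their 4-week level, so that their rise is part of why they are in the set and is given without a test. Values per library in the paragraphs below are CPM after TMM scaling (trimmed means of M values, which corrects library sizes), and compare the ages within a gene, while means over all 6 libraries of a strain are CPM on the column totals, as in the rule. TRAVEDRAFT_77006 had 21.2, 18.1 and 20.4 CPM at 4 weeks, against 0.612, 0.369 and 0.119 CPM at 2 weeks. Its 2-week levels rested on 41, 27 and 7 reads, while 1178, 1101 and 1236 reads were counted at 4 weeks. TRAVEDRAFT_137860 had 70.5, 57.7 and 63.7 CPM at 4 weeks, against 1.99, 1.52 and 1.52 CPM at 2 weeks. The fitted log2 changes were 5.72 (SE 0.23) for TRAVEDRAFT_77006 and 5.25 (SE 0.11) for TRAVEDRAFT_137860.

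TRAVEDRAFT_51352 had 22.3, 23.4 and 24 CPM at 4 weeks, against 1.58, 1.94 and 2.57 CPM at 2 weeks, a log2 change of 3.52 (SE 0.13). TRAVEDRAFT_136323 had 66.8, 63.1 and 63 CPM at 4 weeks, against 12.2, 13.8 and 16 CPM at 2 weeks, a log2 change of 2.21 (SE 0.08, adjusted p = 1.19e-10). In TRAVEDRAFT_136323 and TRAVEDRAFT_51352 the lowest 4-week library lay several times above the highest 2-week one. TRAVEDRAFT_84248 had 27.1, 27.8 and 26 CPM at 4 weeks, against 7.42, 6 and 6.27 CPM at 2 weeks, a log2 change of 2.04 (SE 0.09, adjusted p = 4.28e-10).

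The remaining rises of at least 2-fold were smaller. Lack of overlap between the ages was a condition for naming the 8 largest rises. TRAVEDRAFT_73285 had 9.94, 9.36 and 8.43 CPM at 4 weeks, against 2.63, 3.21 and 3.24 CPM at 2 weeks (log2 change 1.61, SE 0.12). TRAVEDRAFT_28312 had 8.24, 7 and 7.44 CPM at 4 weeks, against 3.08, 2.54 and 2.23 CPM at 2 weeks (log2 change 1.53, SE 0.13). TRAVEDRAFT_134113 had 19.5, 20 and 22.2 CPM at 4 weeks, against 8.97, 8.99 and 10.5 CPM at 2 weeks (log2 change 1.12, SE 0.08). The ninth rise of this size, TRAVEDRAFT_128135, was named after its values were seen, and its log2 change was 1.08 (SE 0.10, adjusted p = 1.19e-06). Adjusted p in edgeR's test was 1.41e-07 for TRAVEDRAFT_134113, and TRAVEDRAFT_73285 and TRAVEDRAFT_28312 are given without a test, as both were under 5 CPM at 2 weeks.

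Only TRAVEDRAFT_59756 fell by 2-fold or more among the called genes. It had 120, 129 and 134 CPM at 4 weeks, against 471, 441 and 341 CPM at 2 weeks, a log2 change of -1.71 (SE 0.09, adjusted p = 6.22e-09). The 2-week libraries were uneven, with the third at 341 CPM, and each of them still lay more than 2-fold above every 4-week library. TRAVEDRAFT_59756 had 3 reads in BRFM1218 and 106422 in 1956-1252.

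The next largest falls were in genes with mean levels below the set's median of 13.1 CPM, except TRAVEDRAFT_17895 at 25.3 CPM. TRAVEDRAFT_49395 had 7.61, 6.77 and 7.92 CPM at 4 weeks, against 13.6, 12.5 and 11.6 CPM at 2 weeks (log2 change -0.76, SE 0.09). TRAVEDRAFT_53922 had 7.87, 7.15 and 8.28 CPM at 4 weeks, against 11.6, 12 and 13.6 CPM at 2 weeks (log2 change -0.67, SE 0.09). TRAVEDRAFT_79503 had 4.27, 4.33 and 3.70 CPM at 4 weeks, against 6.17, 5.88 and 7.50 CPM at 2 weeks (log2 change -0.67, SE 0.12). Ages without overlap were a condition for naming these falls, and TRAVEDRAFT_79503 met the CPM bound only through its 2-week level. TRAVEDRAFT_17896 and TRAVEDRAFT_130457 each had a log2 change of -0.55 (SE 0.09 each), and TRAVEDRAFT_17895 and TRAVEDRAFT_16651 each had one of -0.46 (SE 0.08 and 0.10). TRAVEDRAFT_16651 fell to 5.40, 5.29 and 4.80 CPM at 4 weeks, against 6.96, 7.12 and 7.19 CPM at 2 weeks. Its call was lost in a fit of all 12 libraries, at an adjusted p of 0.0636, against 0.00103 in the 6 libraries of 1956-1252.

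**Figure D3:**
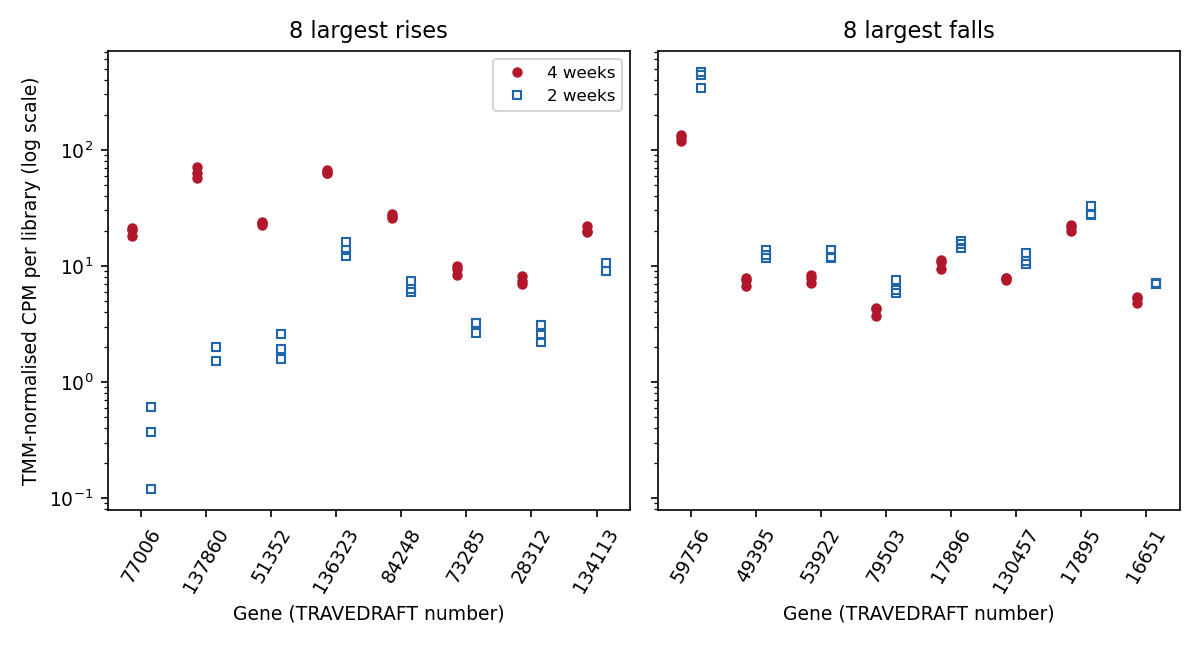
TMM-normalised CPM per library (log axis) of the 8 genes with the largest rises, left, and the 8 with the largest falls, right, in 1956-1252, with 4-week libraries as filled circles and 2-week libraries as open squares, 3 each. The ages do not overlap in any of the 16 genes, because the rule that chose them asked for this, and the rises span a wider range than the falls. Of the 8 rises, 5 were under 5 CPM at 2 weeks and are in the set only through their 4-week level. Among the falls, TRAVEDRAFT_79503 is in the set only through its 2-week level. The wider range of the rises thus partly follows from the rule.

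Of the 10 genes of highest RPKM, all but TRAVEDRAFT_59756 changed by under 2-fold. The log2 change in TMM-normalised counts was 0.82 (SE 0.05) for TRAVEDRAFT_53584, 0.62 (SE 0.04) for TRAVEDRAFT_53585, 0.40 (SE 0.04) for TRAVEDRAFT_50739 and 0.32 (SE 0.06) for TRAVEDRAFT_99127. It was 0.29 (SE 0.04) for TRAVEDRAFT_52770, 0.21 (SE 0.05) for TRAVEDRAFT_53588, -0.20 (SE 0.04) for TRAVEDRAFT_32144 and -0.25 (SE 0.05) for TRAVEDRAFT_23834. The call for TRAVEDRAFT_17336 was the weakest of the top 10, with a log2 change of 0.16 (SE 0.05, adjusted p = 0.0191). Its TMM-normalised levels were 419, 378 and 396 CPM at 4 weeks, against 345, 342 and 383 CPM at 2 weeks, so the libraries overlapped on this scale, and the call was lost without the first or the second 2-week library or the first 4-week library (adjusted p of 0.067, 0.0848 and 0.0651).

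Several genes held close to the same level at both ages. TRAVEDRAFT_103266 had 7.13, 7.12 and 6.24 CPM at 4 weeks, against 6.02, 7 and 7.53 CPM at 2 weeks. TRAVEDRAFT_43400 had 8.05, 8.37 and 7.84 CPM at 4 weeks, against 7.17, 7.90 and 9.05 CPM at 2 weeks. TRAVEDRAFT_51054 had 9.25, 9.99 and 11 CPM at 4 weeks, against 9.79, 9.78 and 11.2 CPM at 2 weeks. The libraries of these 3 overlapped between the ages. TRAVEDRAFT_54191 had a log2 change of -0.03 (SE 0.08) and TRAVEDRAFT_32604 one of 0.05 (SE 0.12). In simulated data of this depth and number of libraries the test recovered 50% of genes changed by 25% and 86% of genes changed by 50%. Of the 122 genes, 57 had fitted changes smaller than the first of these sizes, and a missed threshold does not show that a gene did not change.

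**Figure D4:**
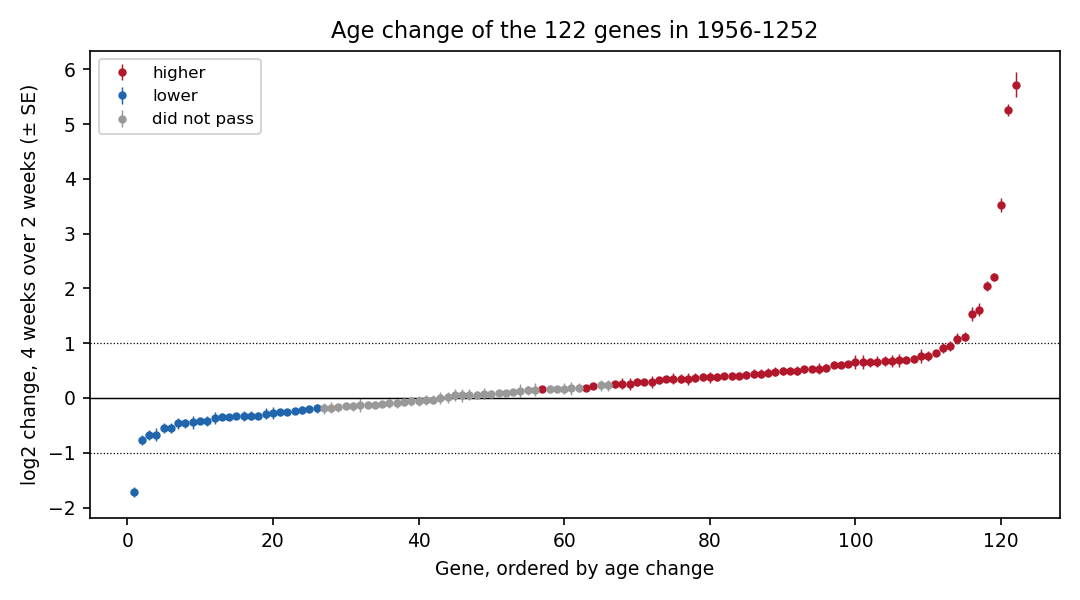
Fitted log2 change, 4 weeks over 2 weeks, with its standard error, for each of the 122 genes in 1956-1252, in order of size and coloured by the test result. Dotted lines mark a 2-fold change, with 9 genes above the upper line and 1 below the lower line, and the median is 0.18. Of the 9, 5 were under 5 CPM at 2 weeks and are in the set only through their 4-week level.

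On the assembly, some of the 122 genes stood side by side. Order was taken from the reference gene table, which describes another strain, and was used only to say which models lie side by side. Of the 122, 32 stood directly next to another gene of the set, in 13 runs, and 43 did so in 14 runs with at most 1 model between. Of the 183 flanking models outside the set, 64 (35.0%) had at most 3 BRFM1218 reads, beside 10.6% of the 14128 placed models outside the set. Restricted to models with at least 1 CPM in 1956-1252, 20 of 124 flanking models (16.1%) had at most 3 BRFM1218 reads, beside 121 of 11591 (1.04%). By the rule, a model outside the set with at most 3 BRFM1218 reads must lie under 5 CPM in 1956-1252. Models of at least 5 CPM are in these totals but cannot be counted, so the shares are partly set by the selection and were not tested. On small scaffolds of under 10 models lay 10 of the 122 genes (8.2%), beside 2.14% of placed models, where scaffold ends were inferred from the order of the table.

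Consecutive models with at most 10 BRFM1218 reads each, holding at least 1 of the 122 genes, were joined into stretches, a definition chosen after the values were seen. There were 90 such stretches. Of these, 77 held 1 gene of the set, 33 were a single model, and 13 held 2 or more, with 45 of the 122 genes. For the 45 genes in those 13 stretches, the age test called 20 rises (44.4%) and 9 falls (20%). For the 77 genes alone in their stretch, it called 39 rises (50.6%) and 17 falls (22.1%). Over all tested genes the shares were 31.4% for rises and 30.6% for falls. Of the 9 genes that met the CPM bound through 1 age alone, only TRAVEDRAFT_137211 lay in those 13 stretches. The others were all alone in their stretch, so the groups differ in this, and the difference between them was not tested. Of the 156 models that lay just outside the stretches, 101 had at least 1 CPM in both strains, and 44 of these were within 2-fold between the strains. The median level of the 156 was 12.1 CPM in 1956-1252, against 3.72 CPM in BRFM1218. Over all placed models it was 18.2 CPM in 1956-1252, against 11.2 CPM in BRFM1218. By the definition of a stretch, each of the 156 had more than 10 BRFM1218 reads, while all placed models include ones with fewer.

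The stretch with the most genes of the set ran from TRAVEDRAFT_53582 to TRAVEDRAFT_53594, with 18 models of which 9 belong to the set. These 18 models had 824410 reads in 1956-1252, against 21 reads in BRFM1218, and no model had more than 6 there. It contains TRAVEDRAFT_53584, TRAVEDRAFT_53585, TRAVEDRAFT_53586 and TRAVEDRAFT_53588. Between them lies TRAVEDRAFT_53587, with 6 BRFM1218 reads just outside the rule, which was the most abundant of the stretch at 868 RPKM. On the left, TRAVEDRAFT_53581 had 4.64 CPM in 1956-1252, against 4.73 CPM in BRFM1218, and on the right TRAVEDRAFT_67375 had 45.7 CPM in 1956-1252, against 3.23 CPM in BRFM1218.

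Genes of the stretch from TRAVEDRAFT_53582 moved together with age. Of the 15 models tested, 14 were higher at 4 weeks and 0 were lower, all 9 genes of the set among them. Among all tested genes 31.4% were higher and 30.6% lower. Outside the stretch, TRAVEDRAFT_53580 on the left also rose (log2 change 0.49, SE 0.11), and TRAVEDRAFT_155976 on the right fell (log2 change -0.53, SE 0.06). The flanking models TRAVEDRAFT_53581 and TRAVEDRAFT_67375 did not pass. TRAVEDRAFT_53587 had 1461, 1453 and 1418 CPM at 4 weeks, against 999, 1027 and 1080 CPM at 2 weeks (log2 change 0.48, SE 0.04), and its ages did not overlap. TRAVEDRAFT_53586 had 136, 134 and 127 CPM at 4 weeks, against 89.2, 90 and 98.2 CPM at 2 weeks (log2 change 0.52, SE 0.05). TRAVEDRAFT_53589 had 10.4, 10.6 and 9.57 CPM at 4 weeks, against 5.25, 5.25 and 5.35 CPM at 2 weeks, and its log2 change of 0.95 (SE 0.09) was the largest of the 9. TRAVEDRAFT_84602 had a log2 change of 0.67 (SE 0.09), TRAVEDRAFT_53594 one of 0.35 (SE 0.08), and TRAVEDRAFT_32021 and TRAVEDRAFT_135660, both without unique reads, 0.50 (SE 0.07) and 0.76 (SE 0.13). Outside this stretch lay 113 genes of the set, a different selection from the 113 with at least 5 CPM at each age, and 50 of them were higher and 26 lower, or 44.2% and 23.0%.

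The run of 4 from TRAVEDRAFT_99127 to TRAVEDRAFT_136838 did not move as one. TRAVEDRAFT_54315 had 32.6, 33.4 and 31.9 CPM at 4 weeks, against 35.6, 33.9 and 36.1 CPM at 2 weeks, and did not pass (adjusted p = 0.0915). TRAVEDRAFT_54316 had 69.5, 67.8 and 72 CPM at 4 weeks, against 80.9, 81 and 82.9 CPM at 2 weeks, and fell (log2 change -0.23, SE 0.04). TRAVEDRAFT_136838 had 12.1, 10.5 and 9.67 CPM at 4 weeks, against 8.78, 8.91 and 9.85 CPM at 2 weeks (adjusted p = 0.0562). TRAVEDRAFT_99127 and, beyond 1 further model, TRAVEDRAFT_84248 rose, as given above. That further model, TRAVEDRAFT_78597, was outside the set at 0.646 CPM in 1956-1252, and it also rose (log2 change 2.36, SE 0.27). Of 3 BRFM1218 reads in the 6 models of this stretch, all 3 fell in TRAVEDRAFT_54316. Its left neighbour TRAVEDRAFT_54312 was at 287 CPM in 1956-1252, against 285 CPM in BRFM1218, and its right neighbour TRAVEDRAFT_32347 at 19.6 CPM, against 21.6 CPM in BRFM1218.

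The longest run of genes of the set with none between was that of TRAVEDRAFT_43397, TRAVEDRAFT_17554, TRAVEDRAFT_114404, TRAVEDRAFT_86254 and TRAVEDRAFT_43400. TRAVEDRAFT_43397 had 18.4, 19.5 and 17.6 CPM at 4 weeks, against 12.5, 12.6 and 12.7 CPM at 2 weeks. TRAVEDRAFT_17554 had 17.4, 17.2 and 15.8 CPM at 4 weeks, against 12.1, 11.1 and 12 CPM at 2 weeks, and TRAVEDRAFT_86254 had 20.2, 18.7 and 19.2 CPM at 4 weeks, against 13.4, 13.5 and 14.5 CPM at 2 weeks. These 3 rose, by log2 changes of 0.55, 0.52 and 0.49 (SE 0.07 each). TRAVEDRAFT_114404, at 7.04, 6.89 and 6.99 CPM at 4 weeks, against 5.76, 5.38 and 7.43 CPM at 2 weeks, did not pass (adjusted p = 0.218). Without the third 2-week library TRAVEDRAFT_114404 passed, at a log2 change of 0.32 (adjusted p = 0.0105). The 4 models on the left side of this run within the stretch had 0 to 6 reads in 1956-1252 and 1 to 8 in BRFM1218, so neither strain had more than a trace there.

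In another stretch, TRAVEDRAFT_17895 and TRAVEDRAFT_17896 fell, and their set neighbours TRAVEDRAFT_63022 and TRAVEDRAFT_43898 did not pass. TRAVEDRAFT_17895 had 22.4, 21.8 and 19.9 CPM at 4 weeks, against 27.9, 27.4 and 32.9 CPM at 2 weeks. TRAVEDRAFT_17896 had 10.9, 9.31 and 11.2 CPM at 4 weeks, against 15.4, 14.3 and 16.4 CPM at 2 weeks. Both were below their 2-week libraries in every 4-week library, which was a condition for naming them among the falls. The neighbour on the left, TRAVEDRAFT_43893, had 110 CPM in 1956-1252, against 235 CPM in BRFM1218. Across all 19 neighbouring pairs within the set, 13 (68.4%) had age changes of the same sign, beside 55.9% of 11718 neighbouring tested pairs, and pairs of one stretch are not independent.

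**Figure D5:**
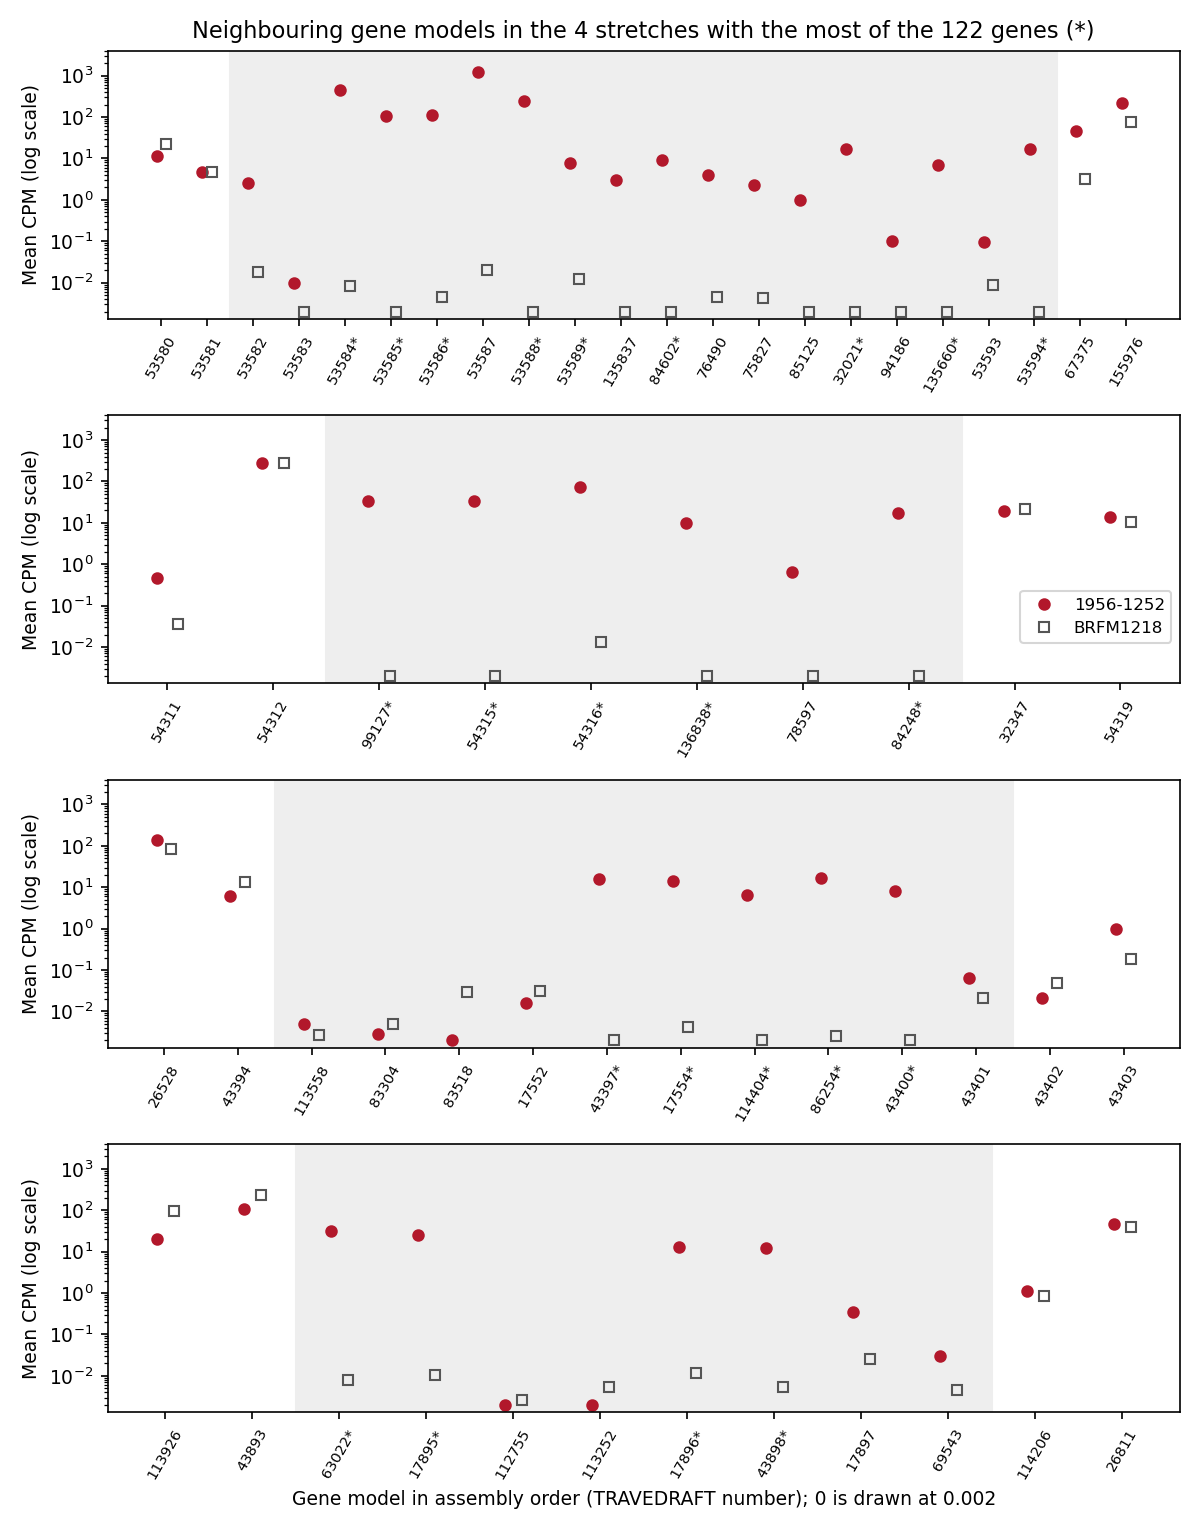
Mean CPM over 6 libraries (log axis, 0 drawn at 0.002) in 1956-1252 (filled circles) and BRFM1218 (open squares) of neighbouring models in 4 stretches, shaded, with 2 models on each side; an asterisk marks a gene of the set. TRAVEDRAFT_53587 is the highest in 1956-1252, and BRFM1218 is near the floor within the shading and at or above 3.23 CPM in both models on the right and left of the first stretch.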

How the data were processed

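Per the file headers, the authors deposited for each gene model a count of unique reads, a count of all reads, and RPKM. These RPKM values were equal to all reads divided by a fixed length and the column total. For aligner, counter, strand and build: not given in the sources used here. All 12 libraries were checked for duplicates within a group by comparing counts, and none agreed within sampling noise.

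The age contrast was fitted to the 6 libraries of 1956-1252 (age group only, 4 residual degrees of freedom) with edgeR 4.0.16 in R 4.3.3, after filterByExpr left 12505 genes and removed 1791, with TMM scaling, quasi-likelihood tests, and Benjamini-Hochberg adjustment over all tested genes; genes under 0.05 are called. A test on simulated counts over 12492 genes recovered 50% of genes changed by 25% and 98% of genes changed 2-fold and made 12 false calls. It changed 50 genes at each size, far fewer than passed in the data, so its rates do not carry over to the data. Each SE was derived as the absolute log2 change divided by the square root of the F statistic of the quasi-likelihood test. Floors use 3 reads and cover counting error only. DESeq2 1.42.0 and limma 3.58.1 were alternatives.

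The genes named were the 10 highest in RPKM, the 8 largest rises and falls with ages not overlapping, the 3 longest runs, and the 5 smallest changes; parts of the rule on symbols and protein sequences named none. The genes and lists were chosen with earlier results of these data known. The RefSeq table gave locus tags for 14250 models and was used for names and neighbours only.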

Additional observations from a re-analysis of the deposited data

How the results depend on the processing

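Of the 85 calls among the 122 genes, 66 held in all 16 alternatives with a value, 19 were lost in at least 1 (10 higher, 9 lower), and none changed sign. Without each library in turn, 56 to 68 genes were higher and 23 to 27 lower, the median log2 change was 0.16 to 0.23, and 120 to 122 genes met the rule; the third 2-week library gave the 68, 27 and 0.23. Among all tested genes 3584 to 4118 were higher and 3323 to 4109 lower. The fit of all 12 libraries called 51 higher and 17 lower, and scaling by library size only gave a median of 0.24. The rule kept 42 genes with 0 reads asked, 243 at 1 CPM and 42 at 20 CPM. With at least 5 CPM asked at each age, added after the data were seen, 113 genes remained, 52 higher and 24 lower. The causes were not tested.

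Same-numbered replicates did not pair (correlations -0.146, 0.013 and -0.233). With the replicate block, 57 genes were higher and 24 lower; this is not a pairing of the samples.

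Genes with no call changed sign. TRAVEDRAFT_43400 was at -0.04 with the length trend removed and at -0.07 to 0.10 without single libraries. TRAVEDRAFT_103266 was at 0.01 with upper quartile factors, 0.06 with library size only, 0.01 with unique reads, 0.01 in the fit of 12 libraries, 0.00 with limma-voom, and -0.09 to 0.07 without single libraries. TRAVEDRAFT_51054 and TRAVEDRAFT_54191 were each at 0.03 with library size only, and at -0.09 to 0.04 and -0.08 to 0.04 without single libraries. TRAVEDRAFT_32604 was at -0.02 with the length trend removed and at -0.05 to 0.18 without single libraries.

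Depth limited low levels: 3 reads correspond to 0.0402 to 0.0548 CPM in the libraries of 1956-1252, and the lowest value of TRAVEDRAFT_77006 rested on 7 reads.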

Other observations

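Beyond the 122 genes, 44 genes of at least 5 CPM in 1956-1252 had 4 to 10 reads in BRFM1218, of which 15 (34.1%) were higher and 11 (25%) lower at 4 weeks, shares near the 31.4% and 30.6% of all tested genes, with a median log2 change of 0.02. The highest of them were TRAVEDRAFT_53587 at 1244 CPM, TRAVEDRAFT_133198 at 364 CPM with 5 BRFM1218 reads, and TRAVEDRAFT_132565 at 282 CPM with 9. Some models next to a stretch had more BRFM1218 reads but still few. TRAVEDRAFT_127409 had 16574 reads in 1956-1252, against 45 in BRFM1218, TRAVEDRAFT_22556 had 27849 in 1956-1252, against 34 in BRFM1218, and TRAVEDRAFT_41080 had 31337 in 1956-1252, against 40 in BRFM1218. These 3 were chosen after their values were seen.

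With the strains exchanged, TRAVEDRAFT_52808 was the most abundant of the 9 genes, at 403 RPKM in BRFM1218 with 39987 reads there, against 1 read in 1956-1252. TRAVEDRAFT_42523 followed at 116 RPKM with 5513 reads, against 0 reads in 1956-1252. The other 7 lay between 3.22 and 18.1 RPKM.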
